A study of Mus musculus with 29 samples.

Results

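Amine and melatonin enzymes were represented by 8 of the 24062 genes in the deposited RNA table: *Hdc*, *Th*, *Ddc* and *Aanat*, which make histamine, catecholamines, serotonin and the precursor of melatonin, *Moxd1*, a copper monooxygenase related to the enzyme that makes noradrenaline, *Maoa* and *Maob*, which break amines down, and the dopamine receptor gene *Drd4*. The 8 genes were taken by name, and they had been picked with their RNA values in these 15 libraries in view, so their RNA levels are given below as a description with no test. Chromatin at the same genes did not enter that choice and was tested.

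The RNA was sequenced from 5 sorted populations of the mouse retina, with 3 libraries each. Pan-BC came from mice with 1 green fluorescent protein allele at the *Otx2* locus (Otx2-GFP+/-), aged 44 to 47 days. ON-BC and OFF-BC came from Otx2-GFP+/- mice that also carried Grm6-YFP+/+, a fluorescent transgene driven by the promoter of the ON bipolar glutamate receptor, aged 42 to 48 days, and OFF-BC were sorted a second time. All bipolar libraries therefore carried 1 altered *Otx2* allele. Rods came from Nrl-eGFP mice and blue cones from Nrl-eGFP mice with the NrlKO allele, both aged 56 days. The blue cones are thus photoreceptors of mice without *Nrl*, in which cells that would have become rods take on the features of blue cones. Chromatin accessibility (ATAC-seq) was measured with 2 libraries each in the same populations, the bipolar mice aged 42 to 46 days, and in green cones of Opn1mw-GFP mice aged 56 days. For ATAC-seq the labels give the pan-BC mice Grm6-YFP+/+ as well, and the study's own sample list does not agree on this. Bipolar libraries pooled the retinas of 1 or more mice, and the photoreceptor libraries had been made for earlier work by the same laboratory. Cell class, study and age cannot be told apart in any comparison of bipolar cells with photoreceptors. Blue cone identity and the loss of *Nrl* cannot be told apart in any comparison with blue cones. The labels give no hour of collection, and *Aanat* and *Drd4* are known for daily rhythms in the retina.

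In the retina dopamine is made by a sparse class of amacrine cell, in which tyrosine hydroxylase makes DOPA and DOPA decarboxylase turns it into dopamine. Photoreceptors sense that dopamine through D4 receptors and make melatonin at night, for which AANAT acetylates serotonin and a methyltransferase encoded by *Asmt* finishes the molecule. Histamine is made by histidine decarboxylase, an enzyme known from mast cells and from neurons of the hypothalamus. Monoamine oxidases on the outer mitochondrial membrane remove the amino group of serotonin, dopamine and related amines.

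Between 12329548 and 26266746 reads were counted on genes in each RNA library and between 4176776 and 12345845 on regions in each ATAC library. All 10 bipolar marker genes were present in the 3 bipolar populations, with a summed level of 185711 to 254387 normalized counts against 8376 to 9406 in rods and 33295 to 38621 in blue cones. A normalized count is the read count divided by 1 size factor per library. Rod markers summed to 35618 to 42878 in pan-BC and ON-BC, 11979 to 17329 in OFF-BC and 1629761 to 2346047 in rods. Cone markers summed to 45706 to 72180 in pan-BC, 5687 to 6464 in ON-BC and 31756 to 106930 in OFF-BC, where library 3 held the highest value. Because these are bulk samples, fewer cells with a transcript and less transcript per cell cannot be told apart.

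The 8 genes fell into separate patterns. *Hdc* was a transcript of rods, *Moxd1* of blue cones, and *Drd4* of both photoreceptor types with the rods ahead. *Maoa* was highest in the bipolar libraries and present everywhere. *Aanat* stood at a few reads in each library, and *Th*, *Ddc* and *Maob* had 11, 4 and 44 reads over all 15 libraries, too few to pass the filter on low counts that the other 5 genes passed. The plot of the 8 genes by library shows these levels on a common axis.

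**Figure D1:**
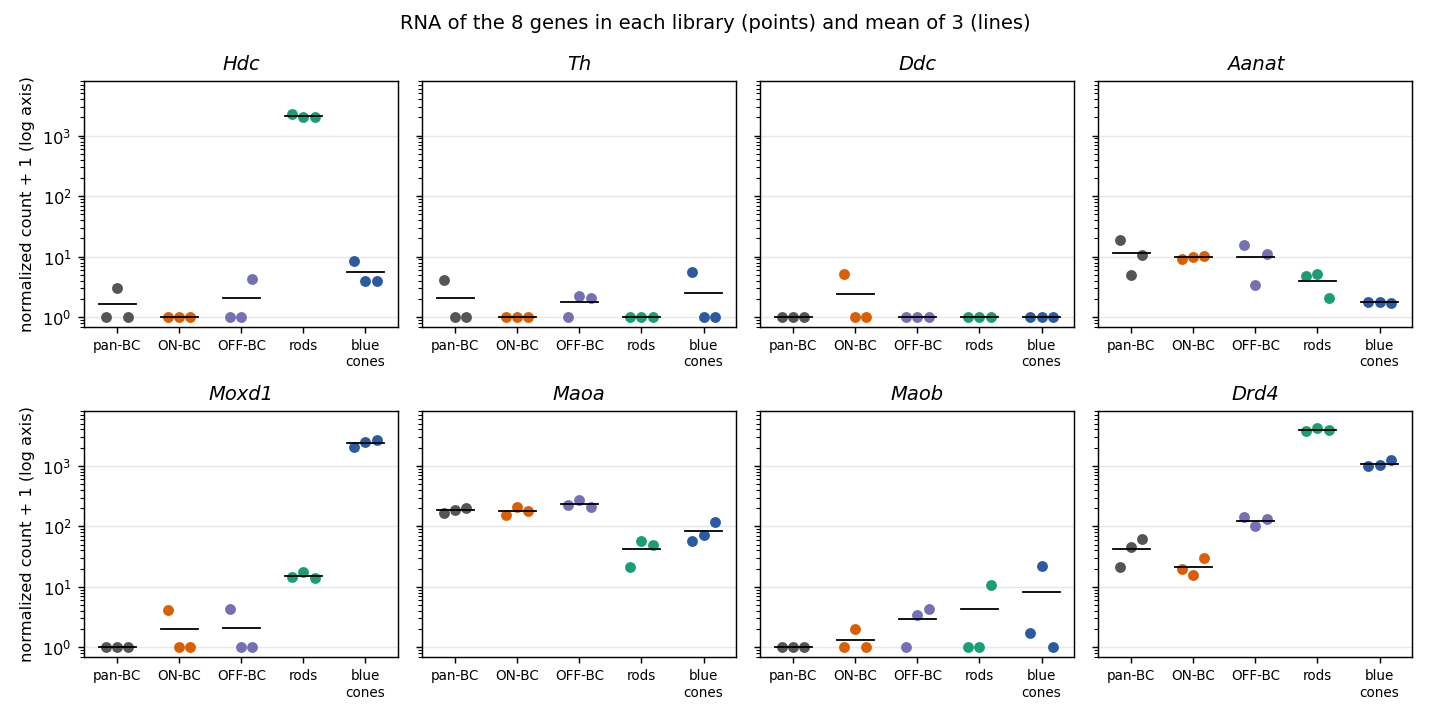
Normalized count plus 1 of each gene (vertical log axis) in each of the 15 RNA libraries (points), by population (horizontal axis), with the mean of 3 libraries as a line. Rods stand alone for *Hdc* (2035 to 2298), blue cones for *Moxd1* (2051 to 2713), and *Th* and *Ddc* lie at or near 0 in each population.

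*Hdc* (NCBI Gene 15186, chromosome 2, 126593659 to 126624025 on the minus strand of GRCm38, predicted transcripts included) encodes the only enzyme step from histidine to histamine. The rod libraries held 2298, 2035 and 2064 normalized counts. Blue cones held 7.52, 3.04 and 2.96, and the 9 bipolar libraries held 5 reads in all, found in 2 of them. No rod library overlapped a library of another population, whereas blue cones overlapped OFF-BC at the bottom of the scale. Rods were 473-fold above blue cones by the means, a log2 difference of 8.69 ± 0.59 (SE). Against pan-BC, with 2 reads in 3 libraries, the ratio of rod reads was 2937 with an exact 95% counting interval of 813 to 24257. Per kb of exon the rod level was 889 ± 60.1 (SD, n = 3), which ranked 1356 among 22511 genes with a known length.

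The mean level of *Hdc* in pan-BC was 0.0315% of that in rods, and in ON-BC the gene was listed at 0. The 10 rod markers stood at a median of 0.962% of their rod level in pan-BC and 0.825% in ON-BC. The lowest marker there was *Pde6b*, a subunit of the rod phosphodiesterase, at 0.397% and 0.325%. *Hdc* was thus below each of the 10 markers in both populations. This did not hold in OFF-BC, where *Hdc* stood at 0.0517%, all of it from library 3. The rod markers there had a median of 0.0753%, and the lowest, *Nr2e3*, stood at 0.0485%. Of the mast cell markers, *Cpa3* and *Fcer1a* had no read in any library, and *Kit* reached a mean of 0.683 in rods.

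The chromatin near the *Hdc* start followed the same order of rods above blue cones and pan-BC. Distances here are from the starts of curated transcripts, for *Hdc* at position 126618678. The region centred 314 bp before that start (chr2:126618893-126619092) lay outside the curated transcript and in an intron of a longer predicted one. It held 225.1 and 295.5 normalized ATAC counts in rods and 56.9 and 38.0 in green cones. Blue cones held 7.77 and 5.78, and the 6 bipolar libraries between 0 and 13.6. Rods and green cones each stood above all other libraries, with rods the higher. It was called higher in rods than in pan-BC (log2 difference pan-BC minus rods -4.84 ± 0.71, limma adjusted p = 9.95e-05) and than in blue cones (5.07 ± 0.71, limma adjusted p = 0.000388). The difference between rods and green cones was 2.45 ± 0.71 and did not pass the test (limma adjusted p = 0.164, range over the alternatives 0.000267 to 0.504). Those green cone libraries were single-sorted, and the part of rod chromatin in their signal was not tested. A call here means that the change exceeded 2-fold at an adjusted p below 0.05, a rule that 51.6% of all 108448 tested regions met between pan-BC and rods, 11.2% in the direction of rods. Between rods and blue cones 10% met it, 1.46% in the direction of rods.

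Peak calls gave the same order. A peak overlapped the *Hdc* start window, 1000 bp before to 100 bp after a curated start, in 2 of 2 rod libraries at 28.2- and 29.7-fold enrichment, in 2 of 2 single-sorted green cone libraries at 12.3- and 7.78-fold, and in 1 of 2 double-sorted green cone libraries at 4.09-fold. No blue cone or bipolar library had one. The series held no RNA library of green cones. At the other end of the gene, a region over the last exon 24689 bp from the start was called higher in pan-BC than in rods (1.93 ± 0.41, limma adjusted p = 0.0372), a call lost without either pan-BC library or rod library 1 and under 3 other settings, with adjusted p values up to 0.275.

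The sequence of the *Hdc* start region is given because it carries the rod difference. It is the plus strand of GRCm38, printed with 3 motifs in capitals on either strand wherever they occur: TAATCC, bound by CRX and OTX2, the homeodomain factors of photoreceptors and bipolar cells, TAATTA or TAATTG, bound by many other homeodomain factors, and the E-box CANNTG. In all 110715 regions TAATCC was found in 21.8%, TAATTA or TAATTG in 11.4% and CANNTG in 68.7%. The *Hdc* region held none of these letters.
Hdc, -314 bp: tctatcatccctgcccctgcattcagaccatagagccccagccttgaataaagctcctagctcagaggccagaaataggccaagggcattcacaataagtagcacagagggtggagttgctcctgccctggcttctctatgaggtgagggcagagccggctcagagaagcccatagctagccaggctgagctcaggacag

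*Th* (chromosome 7, 142892779 to 142899995, minus strand) and *Ddc* (chromosome 11, 11814101 to 11898144, minus strand), the pair of enzymes that make dopamine, stood at or near 0 in each population. *Th* had 3 reads in pan-BC library 1, 1 read each in OFF-BC libraries 2 and 3 and 6 reads in blue cone library 1, and none in the other 11 libraries. *Ddc* had 4 reads in ON-BC library 1 and none in the other 14. A count of 0 allows up to 3 reads per library, equal on average to 3.30 normalized counts (pan-BC), 3.08 (rods) or 2.25 (blue cones). The dopamine transporter gene *Slc6a3*, which marks dopaminergic amacrine cells, had 1 read in pan-BC library 1 and none in any other library. The second marker of that list, the vesicular monoamine transporter *Slc18a2*, is described below.

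No library had a peak over the start of either gene, and yet chromatin inside *Ddc* was open in bipolar cells. The region 1613 bp before the downstream start (chr11:11891922-11892121), which lies in an intron of the longer curated transcript, held 106.4 and 111.2 normalized ATAC counts in pan-BC. ON-BC held 140.4 and 139.1 and OFF-BC 70.0 and 53.5. The photoreceptor libraries stayed between 0 and 7.68, so the bipolar and photoreceptor libraries did not overlap. The region was called higher in pan-BC than in rods (5.16 ± 0.61, limma adjusted p = 9.75e-06), blue cones (5.57 ± 0.61, limma adjusted p = 1.23e-05) and green cones (3.85 ± 0.61, limma adjusted p = 0.000933), and under each alternative tried. Regions higher in pan-BC made up 40.3%, 28.8% and 24.1% of all regions in these 3 comparisons. A second intronic region, 8500 bp after the downstream start, held 94.4 and 95.8 in pan-BC and 179.2 and 177.2 in ON-BC. OFF-BC held 53.9 and 15.6, and rods 0 and 2.03. This region (chr11:11881809-11882008) lies between predicted *Ddc* starts at 11882349 and 11881099. It was called higher in pan-BC than in rods, where 286 reads stood against 3, a ratio of 87.6 with a counting interval of 29.7 to 427. Between ON-BC and OFF-BC its difference of 2.57 ± 0.59 did not pass (limma adjusted p = 0.0867, range 0.00143 to 0.664). It also lies in an intron of the noncoding gene *1700042O10Rik*. At *Th* the region 16408 bp before the start was higher in pan-BC (55.2 and 37.6) than in rods (0.779 and 0, 5.13 ± 0.75, limma adjusted p = 8.76e-05). It was the only 1 of 11 *Th* regions called between these populations. The intronic region 2223 bp into *Th* was called lower in pan-BC than in green cones (-2.78 ± 0.61, limma adjusted p = 0.0191). It was also called lower in ON-BC than in OFF-BC (-3.57 ± 0.61, limma adjusted p = 0.00835).

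The region before the downstream *Ddc* start is printed because it was open in bipolar cells while the RNA was near 0. It held 3 E-boxes.
Ddc, -1613 bp: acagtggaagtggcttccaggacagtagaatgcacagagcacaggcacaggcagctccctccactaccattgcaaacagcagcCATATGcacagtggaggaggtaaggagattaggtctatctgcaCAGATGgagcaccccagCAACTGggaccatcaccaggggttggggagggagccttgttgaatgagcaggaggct

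*Aanat* (NCBI Gene 11298, chromosome 11, 116591721 to 116597680, plus strand, predicted transcripts included), the rhythm-setting enzyme of melatonin synthesis, had reads in 15 of 15 libraries but 91 in all. Pan-BC held 18.1, 4.04 and 9.79 normalized counts, ON-BC 8.25, 8.82 and 9.23, and OFF-BC 14.5, 2.40 and 9.93. Rods held 3.88, 4.10 and 1.08, and blue cones 0.752, 0.759 and 0.740, which is 1 read each. The 3 bipolar populations overlapped one another, and each ON-BC library was above each rod library. Pan-BC overlapped rods at 4.04, with a read ratio of 3.44 (95% counting interval 1.58 to 8.25), and stood above blue cones by 14.1 (4.36 to 72.1). *Asmt*, whose enzyme completes melatonin, was listed at 0 in all 15 libraries.

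Chromatin before *Aanat* was highest in rods, whereas the few RNA reads gave the highest means in bipolar cells. Rods stood above blue cones in both. The curated start is at 116593687, and the region 1089 bp before it (chr11:116592499-116592698) overlaps an exon of a predicted transcript. It held 252.3 and 274.4 in rods and 71.2 and 43.3 in pan-BC. Blue cones held 85.5 and 101.2, and green cones 89.1 and 122.5. Both rod libraries lay above all others. It was called lower in pan-BC than in rods (-2.22 ± 0.28, limma adjusted p = 0.000729), but its difference between rods and blue cones did not pass (1.49 ± 0.28, limma adjusted p = 0.278). A region 5413 bp before the start behaved alike, with 56.1 and 63.7 in rods, against 20.7 and 31.8 (blue cones), 38.4 and 28.2 (green cones) and at most 8.00 (bipolar cells). It was called between pan-BC and rods (-3.48 ± 0.69, limma adjusted p = 0.00273), although not without pan-BC library 2, where the adjusted p was 0.0507. All 14 libraries had a peak touching the *Aanat* start window, at 25.9- and 25.7-fold enrichment in rods and 5.81- to 18.6-fold in the other libraries. None of these peaks came within 250 bp of the curated start itself.

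The sequence of the region 5413 bp before *Aanat* is shown as the one with the highest rod-to-bipolar ratio at this gene. It held 1 TAATCC, read on the minus strand, and 1 E-box.
Aanat, -5413 bp: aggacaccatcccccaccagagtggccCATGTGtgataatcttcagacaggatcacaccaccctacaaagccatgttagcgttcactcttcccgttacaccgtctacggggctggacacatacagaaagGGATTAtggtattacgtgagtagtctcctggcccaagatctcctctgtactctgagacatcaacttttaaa

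*Moxd1* (NCBI Gene 59012, chromosome 10, 24223517 to 24302783, plus strand) encodes a monooxygenase of the secretory pathway whose substrate in the retina is not established. Blue cones held 2051, 2470 and 2713 normalized counts, and rods 13.6, 16.4 and 12.97. Pan-BC had no read in 3 libraries, and ON-BC and OFF-BC had 3 reads each, all in library 1. Blue cones were 168-fold above rods by the means (log2 difference rods minus blue cones -7.30 ± 0.59) and at least 732-fold above pan-BC at a floor of 3 reads per library. Rods in turn were at least 4.34-fold above pan-BC. The rod level was 0.594% of the blue cone level, while the 9 cone markers stood in rods at a median of 0.704% (0.477% to 1.17%). The part of cone RNA in the rod level of *Moxd1* was not tested. The rod, blue cone and bipolar libraries did not overlap. Per kb of exon the blue cone level was 782 ± 109 (SD, n = 3).

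Transcripts of cones were present in libraries where *Moxd1* was not. *Opn1sw*, the blue cone opsin, held 50740, 28147 and 42310 normalized counts in pan-BC and 4477, 4314 and 55813 in OFF-BC, against 1108422 to 1302223 in blue cones. *Moxd1* was at 0 in all 3 pan-BC libraries and in OFF-BC library 3. The 9 cone markers stood at a median of 3.46% of their blue cone level in pan-BC. The share of these reads that came from cones carried through the sort was not tested.

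At the *Moxd1* start both cone types were open and rods were not. The region over the first exon (chr10:24223470-24223669, centre 52 bp after the start) held 167.1 and 128.6 normalized ATAC counts in blue cones. Green cones held 100.7 and 131.0, pan-BC 24.8 and 22.8, and rods 4.67 and 0. Its differences between rods and blue cones (-5.95 ± 0.58, limma adjusted p = 6.30e-06) and between rods and green cones (-5.60 ± 0.58, limma adjusted p = 1.52e-05) were called under each alternative. Pan-BC were called higher than rods there (3.38 ± 0.58, limma adjusted p = 0.00111), in the absence of *Moxd1* reads. The call of pan-BC below blue cones (-2.57 ± 0.58, limma adjusted p = 0.0234) was lost without any 1 of the 4 libraries compared. Peaks overlapped the start window in 6 of 6 cone libraries, 2 of 2 pan-BC, 1 of 2 ON-BC, 2 of 2 OFF-BC and 0 of 2 rod libraries.

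An intronic region 28300 bp into *Moxd1* (chr10:24251718-24251917) separated ON-BC from OFF-BC as well. Blue cones held 150.2 and 127.2, green cones 128.3 and 116.9, OFF-BC 67.4 and 54.5, pan-BC 17.6 and 19.4, rods 4.67 and 4.07, and ON-BC 2.99 and 0. OFF-BC thus lay between the cones and all remaining libraries, without overlap. The part of cone chromatin in this OFF-BC signal was not tested. The ON-BC to OFF-BC difference was -4.95 ± 0.52 (limma adjusted p = 0.000126) and was called under each of 21 alternatives. In reads, 106 stood against 2, a ratio of 40.5 with a counting interval of 10.9 to 339. Of all regions, 7.39% were called between ON-BC and OFF-BC, 4.58% with ON-BC and 2.80% with OFF-BC the higher. *Moxd1* RNA had 3 reads in each of these populations.

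The other *Moxd1* regions divided by position, as the plot along the gene shows. Of the 15 regions nearest its start, 14 were tested, of which 11 were called between rods and blue cones and 10 between rods and green cones, all higher in cones. The share of all regions higher in blue cones than in rods was 8.56%, and in green cones 10.9%. The regions lie in 1 neighbourhood and share the same libraries, so they are not independent. Pan-BC were called above rods at 10 of 14, with no region the other way, beside 40.3% and 11.2% of all regions in these directions. The largest bipolar signal lay 173083 bp past the start in an intron of *Gm15270*, where pan-BC held 241.6 and 327.3, ON-BC 327.0 and 386.5, OFF-BC 225.0 and 118.8, cones 31.1 to 44.8 and rods 1.56 and 5.42. This region was called higher in pan-BC than in rods (6.12 ± 0.38, limma adjusted p = 7.08e-09), blue cones (2.88 ± 0.38, limma adjusted p = 0.000466) and green cones (2.99 ± 0.38, limma adjusted p = 0.000465), each under all alternatives. It was assigned to *Moxd1* by distance alone.

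**Figure D2:**
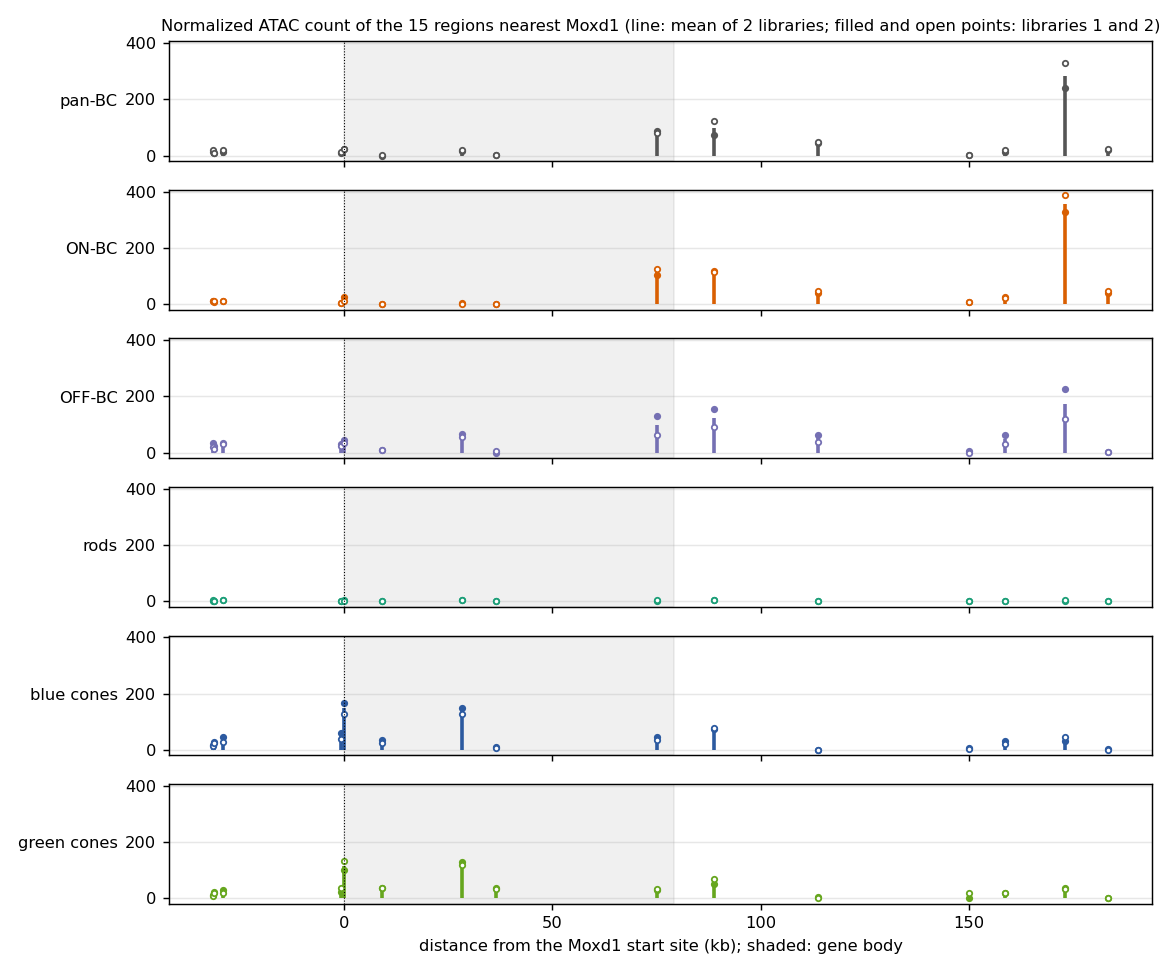
Normalized ATAC count (vertical axis) of the 15 regions nearest *Moxd1* by the distance of their centre from its start in kb (horizontal axis), 1 panel per population, with the mean of 2 libraries as a line, each library as a point and the gene body shaded. Cones are highest at the start and at 28300 bp, bipolar cells at 173083 bp, and rods stay at 5.42 or lower.

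These 3 *Moxd1* sequences are printed to compare the bases before the cone-open start with the cone and OFF-BC region and the bipolar region. The 250 bases before the start are credited to the RefSeq promoter table (GRCm38.p6, chr10:24223267-24223516, plus strand), which held 6 of the 8 genes. They held 1 E-box, which 66.2% of the 32851 promoters in that table held in the same 250 bases. The region at 28300 bp held 4 E-boxes and neither homeodomain motif. The region at 173083 bp (chr10:24396501-24396700) held 2 TAATCC, 1 TAATTG and 2 E-boxes, and no motif overlapped another.
Moxd1, 250 bases before the start: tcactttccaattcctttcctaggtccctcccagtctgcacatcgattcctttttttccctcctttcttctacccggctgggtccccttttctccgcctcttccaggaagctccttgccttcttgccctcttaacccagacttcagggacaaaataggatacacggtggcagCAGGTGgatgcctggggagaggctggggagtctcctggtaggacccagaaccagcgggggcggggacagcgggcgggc
Moxd1, 28300 bp: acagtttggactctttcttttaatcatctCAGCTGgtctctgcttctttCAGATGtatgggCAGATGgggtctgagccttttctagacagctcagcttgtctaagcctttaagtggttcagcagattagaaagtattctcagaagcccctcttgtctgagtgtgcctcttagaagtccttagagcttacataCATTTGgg
Moxd1, 173083 bp: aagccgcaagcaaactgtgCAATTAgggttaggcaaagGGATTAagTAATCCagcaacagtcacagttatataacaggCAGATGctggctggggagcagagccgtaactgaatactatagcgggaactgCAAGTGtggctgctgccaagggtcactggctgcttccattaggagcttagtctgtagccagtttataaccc

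*Maoa* (NCBI Gene 17161, chromosome X, 16619698 to 16687812, plus strand) encodes the monoamine oxidase that prefers serotonin and noradrenaline. OFF-BC held 221.3, 267.9 and 210.8 normalized counts, pan-BC 165.9, 187.6 and 198.2, and ON-BC 150.7, 204.8 and 181.6. Blue cones held 55.7, 72.1 and 116.9, and rods 20.4, 56.3 and 48.6. OFF-BC lay above pan-BC without overlap, pan-BC and ON-BC overlapped, each bipolar library lay above each photoreceptor library, and blue cones overlapped rods. Pan-BC were 4.40-fold above rods by the means (log2 difference 2.23 ± 0.33) and 2.26-fold above blue cones (1.23 ± 0.33). The ON-BC to OFF-BC difference was -0.38 ± 0.33.

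All 3 regions near the *Maoa* start were more open in bipolar cells. The region over the start (chrX:16619590-16619789) held 108.8 and 219.5 (pan-BC), 200.1 and 212.3 (ON-BC) and 173.8 and 130.4 (OFF-BC), against 16.4 and 12.2 in rods. Blue cones held 12.9 and 26.0, and green cones 37.6 and 47.9. The bipolar libraries did not overlap the photoreceptor libraries. It was called higher in pan-BC than in rods (3.36 ± 0.36, limma adjusted p = 1.54e-05) and blue cones (3 ± 0.36, limma adjusted p = 0.000167) under all alternatives. Against green cones (1.84 ± 0.36, limma adjusted p = 0.0489) the call was lost under 12 of 21 alternatives, with adjusted p values of 0.00109 to 0.445. The region 1112 bp before the start (chrX:16618487-16618686) was the most open of the 3, at 334.4 and 448.7 in pan-BC. Rods held 60.0 and 42.0, blue cones 85.5 and 79.5, and green cones 94.5 and 102.8. It was called against rods (2.92 ± 0.27, limma adjusted p = 6.65e-06), blue cones (2.22 ± 0.27, limma adjusted p = 0.000892) and green cones (1.96 ± 0.27, limma adjusted p = 0.00605), the last not without pan-BC library 2 (adjusted p = 0.0813). Each of the 14 libraries, rods included, had a peak over the *Maoa* start window.

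The *Maoa* region 1112 bp before the start is shown because its pan-BC level was the highest of all 45 regions near the 8 genes. It held 3 E-boxes and no homeodomain motif, and 68.0% of its bases were G or C.
Maoa, -1112 bp: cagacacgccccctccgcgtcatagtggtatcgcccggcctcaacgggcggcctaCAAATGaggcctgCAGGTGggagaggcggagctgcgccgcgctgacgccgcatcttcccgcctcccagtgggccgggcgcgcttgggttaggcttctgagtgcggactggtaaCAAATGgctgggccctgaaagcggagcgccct

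*Maob* (chromosome X, 16709281 to 16817366, minus strand), its neighbour and the oxidase that prefers phenylethylamine, had 44 reads, of which 28 were in blue cone library 2 and 9 in rod library 3. The normalized counts were 0.752, 21.2 and 0 in blue cones and 0, 0 and 9.73 in rods, and no bipolar library passed 3.31. The populations overlapped. A region in its intron, 51007 bp from the start (chrX:16766260-16766459), held 31.2 and 27.4 normalized ATAC counts in pan-BC, with ON-BC at 32.9 and 38.1 and OFF-BC at 40.4 and 15.6. It was listed at 0 in all 6 photoreceptor libraries. Pan-BC were at least 13.4-fold above rods, 9.68-fold above blue cones and 8.97-fold above green cones at 3 reads per library. The calls (limma adjusted p = 6.84e-05, 0.000152 and 0.000253) held under all alternatives. Peaks over the *Maob* start were found in 1 of 2 pan-BC and 1 of 2 ON-BC libraries and in none of the other 10.

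**Figure D3:**
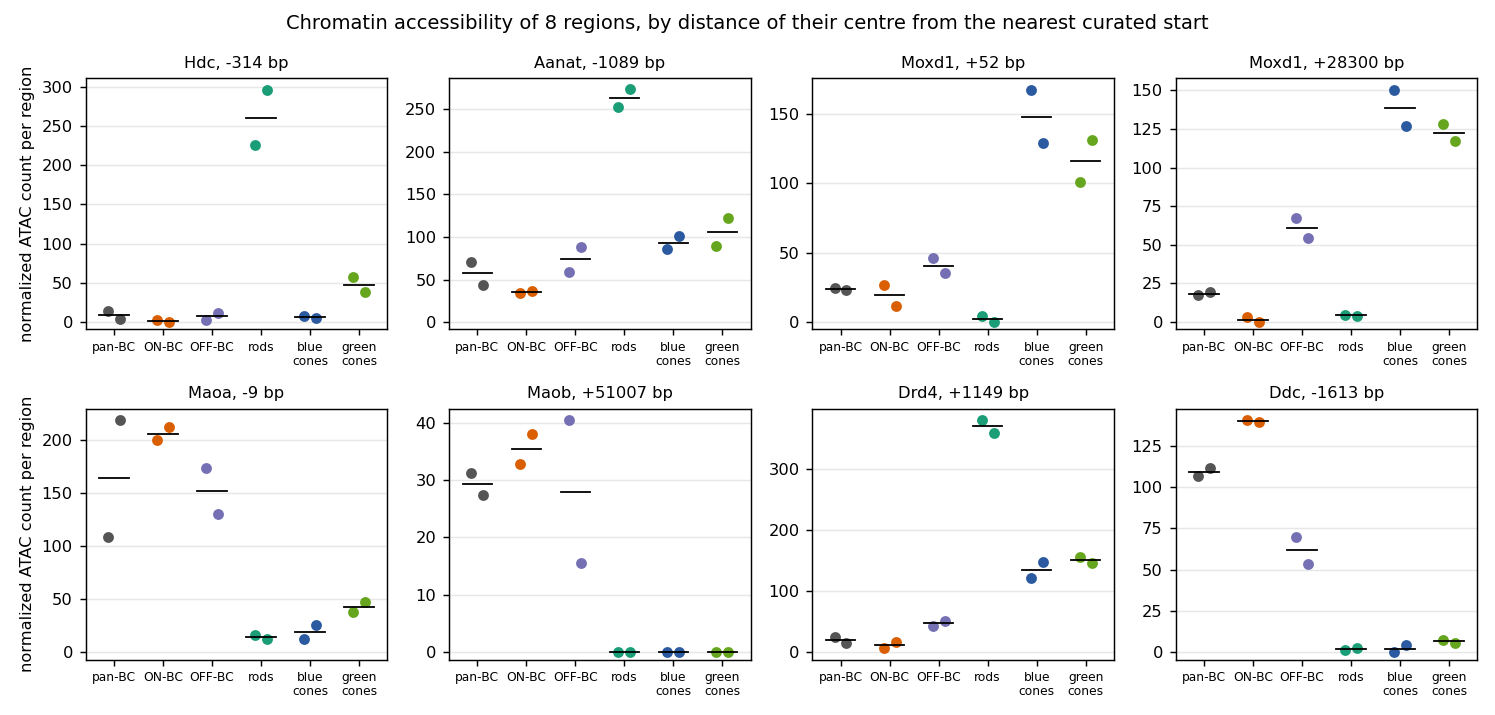
Normalized ATAC count (vertical axis, linear, separate scale per panel) of 8 regions in each of 12 libraries (points), with the mean of 2 as a line, titled by gene and distance of the region's centre from the nearest curated start. Rods are highest at *Hdc*, *Aanat* and *Drd4*, cones at both *Moxd1* regions, and the bipolar libraries at *Maoa*, *Maob* and *Ddc*.

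*Drd4* (NCBI Gene 13491, chromosome 7, 141291974 to 141296464, plus strand, predicted transcripts included) encodes the dopamine receptor of photoreceptors, which lowers cyclic AMP. Rods held 3747, 4219 and 3885 normalized counts and blue cones 984.5, 1037 and 1232, a 3.64-fold difference of the means (log2 1.87 ± 0.30). OFF-BC held 139.7, 100.9 and 130.2, pan-BC 20.2, 44.4 and 59.9, and ON-BC 18.6, 14.7 and 28.7. Rods, blue cones and OFF-BC each stood apart without overlap, and pan-BC overlapped ON-BC. OFF-BC were 5.98-fold above ON-BC (log2 difference ON-BC minus OFF-BC -2.56 ± 0.30), and the difference was -2.52 without OFF-BC library 3. Per kb of exon *Drd4* reached 1417 ± 87.1 in rods (SD, n = 3), rank 737 of 22511 genes and the highest of the 8.

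Among the bipolar populations the mean of *Drd4* was highest in OFF-BC and lowest in ON-BC. The median of the cone markers was likewise lowest in ON-BC, and nearly the same in OFF-BC and pan-BC. The cone marker sums ran from 31756 to 106930 in OFF-BC and from 45706 to 72180 in pan-BC. As a share of the rod level, pan-BC held 1.05% of *Drd4*, ON-BC 0.523% and OFF-BC 3.13%, while the median over 10 rod markers was 0.962%, 0.825% and 0.0753%. Of the 10 rod markers, *Gngt1* and *Rom1* stood above *Drd4* in all 3 populations, up to 11.4% for *Rom1* in pan-BC, and all 10 were lowest in OFF-BC. As a share of the blue cone level, pan-BC held 3.83% of *Drd4*, ON-BC 1.91% and OFF-BC 11.4%, while the median over 9 cone markers was 3.46%, 0.208% and 3.87%, with a highest value in OFF-BC of 52.8% for *Gngt2*. The part of photoreceptor RNA in the bipolar levels of *Drd4* was not tested. The plot of rod markers as a percent of their rod level shows both members beside them.

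**Figure D4:**
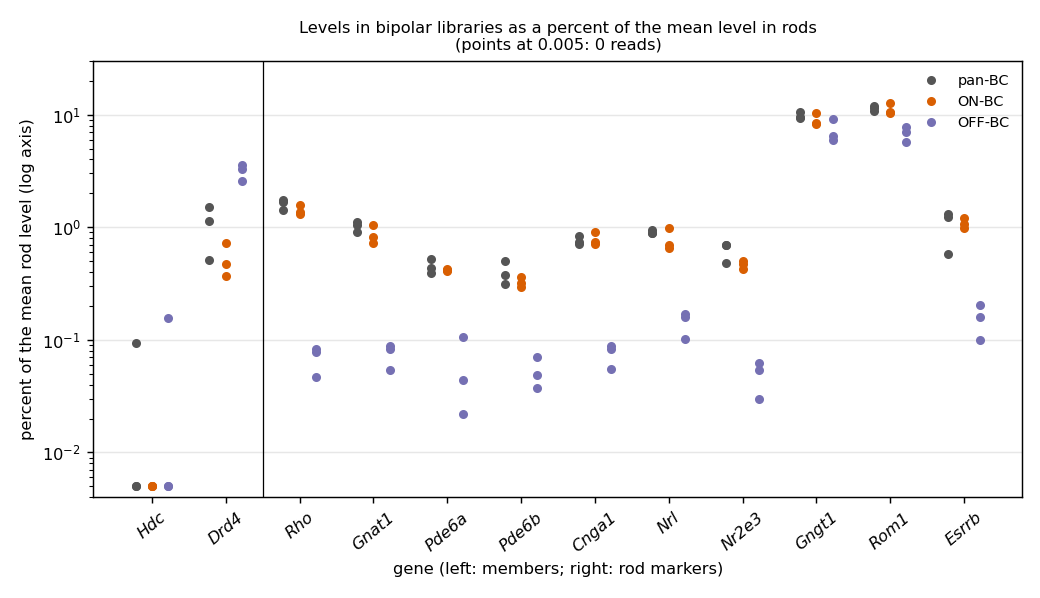
Level in each bipolar library (points) as a percent of the mean rod level (vertical log axis) for *Hdc*, *Drd4* and 10 rod marker genes (horizontal axis), with 0 reads drawn at the lower edge. OFF-BC are the highest of the 3 bipolar populations for *Drd4* (3.13% on average) and the lowest for the rod markers (median 0.0753%).

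Chromatin at *Drd4* was likewise most open in rods. The region over the start (chr7:141291922-141292121) held 200.1 and 192.5 in rods. Blue cones held 99.7 and 101.2, green cones 102.2 and 77.5, OFF-BC 57.9 and 39.9, pan-BC 32.0 and 28.5 and ON-BC 23.9 and 23.4. Where both were measured, the means kept the order of the RNA, but pan-BC and ON-BC RNA overlapped. The intronic region 1149 bp after the start (chr7:141293068-141293267) held 380.0 and 359.2 in rods. Blue cones held 121.7 and 148.1, green cones 156.0 and 146.5, OFF-BC 43.1 and 51.6, pan-BC 24.8 and 16.0 and ON-BC 7.46 and 17.6. Both regions were called lower in pan-BC than in rods (-2.66 ± 0.28, limma adjusted p = 3.83e-05, and -4.15 ± 0.33, limma adjusted p = 3.18e-07), and the intronic one also than in blue cones (-2.69 ± 0.33, limma adjusted p = 0.000345) and green cones (-2.86 ± 0.33, limma adjusted p = 0.000263), under all alternatives. The start region was also called lower in pan-BC than in blue cones (-1.70 ± 0.28, limma adjusted p = 0.0315), but the call was lost without any 1 of the 4 libraries compared, with 5 as pseudocount and with DESeq2 (adjusted p up to 0.117). Against green cones it did not pass (-1.53 ± 0.28, limma adjusted p = 0.0968, range over the alternatives 0.0204 to 0.37). Between rods and blue cones neither passed, at 0.96 ± 0.28 and 1.45 ± 0.33. Between ON-BC and OFF-BC the intronic region differed by -1.94 ± 0.33 and missed the threshold (limma adjusted p = 0.0662, range 0.00753 to 0.581). A peak lay over the start in 2 of 2 libraries of each population other than ON-BC, with 0 of 2.

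Over all 8 genes, 45 of the 110715 regions had one of them as nearest start, and 43 were tested. Between pan-BC and rods 24 were called, 19 higher in pan-BC, a share of 55.8% beside 51.6% of all regions. Of all regions 40.3% were higher in pan-BC. The shares were likewise near the background between pan-BC and blue cones, 17 regions or 39.5% beside 35.9%. Of the 17, 12 were higher in pan-BC and 5 in blue cones (9 and 7 with TMM factors). These directions held 28.8% and 7.13% of all regions. Between pan-BC and green cones 18 or 41.9% were called beside 32.1%. Of the 18, 11 were higher in pan-BC (24.1% of all regions) and 7 in green cones (8.00% of all regions). ON-BC against OFF-BC gave 5 calls, 11.6% beside 7.39%, 4 of them higher in OFF-BC (4 of 4 with TMM factors and 5 of 5 by library totals). Of all regions 2.80% were higher in OFF-BC and 4.58% in ON-BC. At the 4 member regions higher in OFF-BC both cone types had a higher mean than OFF-BC. The part of cone chromatin in the OFF-BC signal was not tested. With the replicate number as a block in a fit of ON-BC and OFF-BC alone, 3 were called, 1 of them higher in OFF-BC. Rods differed from blue cones at 13 regions, 30.2% beside 10%, and from green cones at 10, 23.3% beside 11.2%, and *Moxd1* supplied 11 and 10 of these. The single region higher in rods was the *Hdc* start, and none was higher in rods than in green cones (0.278% of all). TAATCC was found in 11 of the 45 regions, TAATTA or TAATTG in 5 and CANNTG in 33.

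The wider amine pathways were described with 39 further genes, covering synthesis, cofactors, breakdown, transport and receptors. Of these, 23 passed the filter on low counts and 16 did not, and 8 of the 16 were listed at 0 in all 15 libraries. The list was drawn up with earlier results of these data known, so its counts stand beside those of all genes as a description. Between pan-BC and rods 18 of 23 were called by limma, 15 higher in pan-BC and 3 in rods, which is 78.3% beside 43.6% of all 14024 genes tested (27.8% higher in pan-BC and 15.8% in rods). The median log2 difference was 3.44 for the list and 0.21 for all genes. Between pan-BC and blue cones 17 were called, 13 higher in pan-BC and 4 in blue cones, 73.9% beside 36.3%, with medians of 2.84 and 0.16. The heat map of pathway levels shows where each gene stood.

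**Figure D5:**
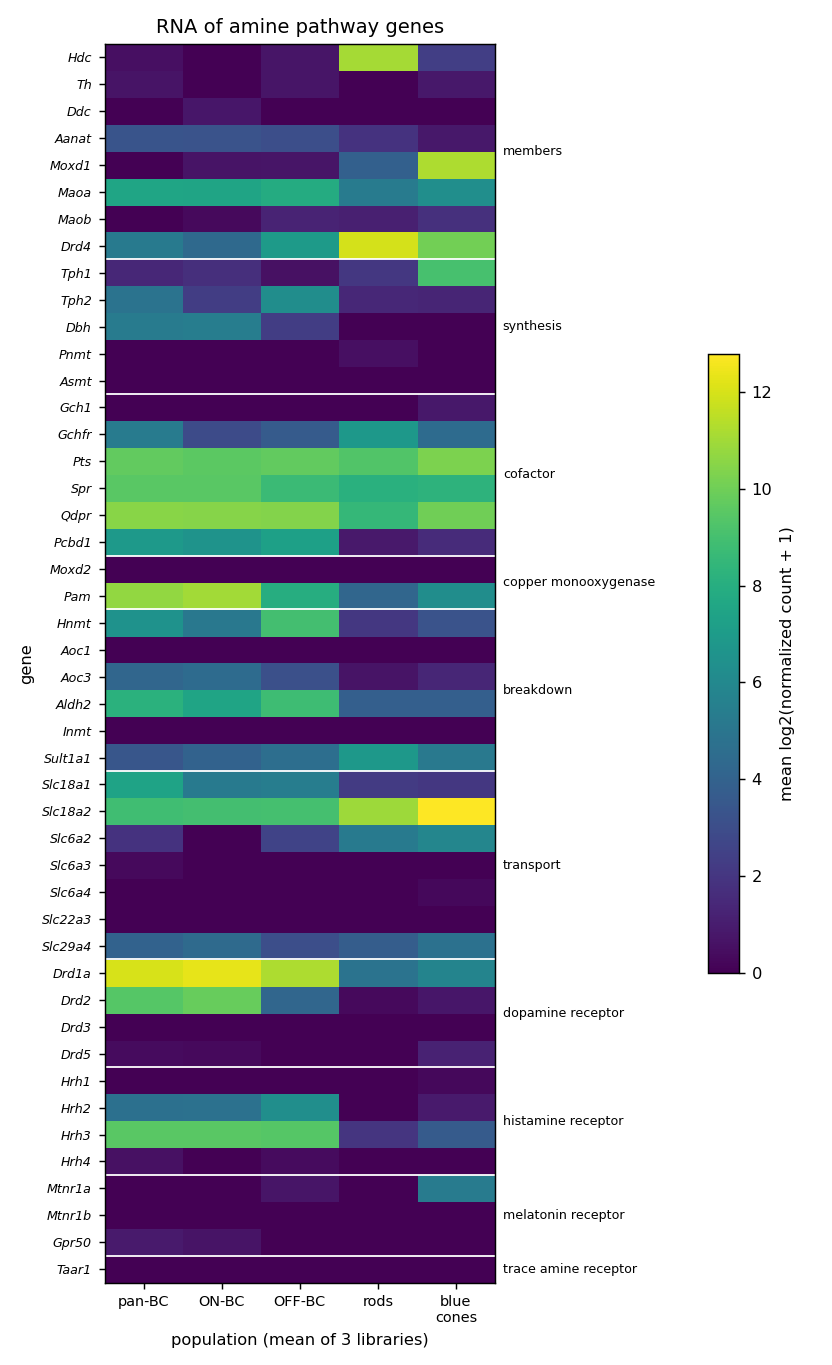
Mean of log2(normalized count + 1) over 3 libraries (colour) for the 8 genes and 38 of the further pathway genes (rows, grouped by role) in 5 populations (columns). Receptor genes *Drd1a*, *Drd2* and *Hrh3* are bright in bipolar populations, *Hdc* and *Drd4* in rods, and *Moxd1*, *Tph1* and *Slc18a2* in blue cones.

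Of the 4 dopamine and 4 histamine receptor genes of the list, 2 each passed the test with pan-BC above rods and with pan-BC above blue cones, and the others were too low to test. *Drd1a*, the older symbol of the D1 receptor gene, held 4343, 3765 and 4147 normalized counts in pan-BC against 17.5 to 41.1 in rods (log2 difference 7.12 ± 0.29, limma adjusted p = 6.76e-12) and 59.1 ± 27.5 (SD, n = 3) in blue cones (6.20 ± 0.29, limma adjusted p = 1.57e-10). *Drd2*, the D2 receptor gene, held 677.9 ± 37.8 in pan-BC (SD, n = 3) beside 1 read in 3 rod libraries, a read ratio of 1987 with a counting interval of 356 to 78538. It also stood higher in ON-BC, with 835.8, 1101 and 837.2, than in OFF-BC, with 13.4, 8.41 and 47.5 (5.61 ± 0.60, limma adjusted p = 2.40e-05). *Hrh3*, the presynaptic histamine receptor gene, held 728.9 ± 24.2 in pan-BC and 3.09 ± 1.15 in rods (7.52 ± 0.24, limma adjusted p = 2.49e-13) and did not differ between ON-BC and OFF-BC beyond the spread (0.12 ± 0.24). The rods, which held *Hdc*, thus held little RNA of either tested histamine receptor. *Hrh2* had no read in rods and 26.9 ± 11.7 in pan-BC, at least 8.75-fold more. *Drd3*, *Mtnr1b* and *Taar1* were listed at 0 in all libraries.

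*Mtnr1a*, a melatonin receptor gene, was found in blue cones at 35.3, 41.0 and 39.2 normalized counts and had no read in rods or pan-BC, a difference of at least 12.5-fold and 11.7-fold. Its level in blue cones was called above both (limma adjusted p = 6.48e-06 and 2.97e-06).

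Among synthesis genes *Tph1*, the first enzyme of serotonin synthesis in the pineal gland and gut, was a blue cone transcript at 535.5, 494.8 and 598.0, against 1.94, 11.3 and 1.08 in rods (rods minus blue cones -7.01 ± 0.77, limma adjusted p = 6.40e-06). *Tph2*, the neuronal form, was higher in OFF-BC (78.2, 114.1 and 48.5) than in ON-BC (7.22, 3.92 and 2.05), at -3.95 ± 0.76 (limma adjusted p = 0.0127). *Dbh*, the copper monooxygenase that makes noradrenaline, went the other way, with 31.99, 32.3 and 70.8 in ON-BC and 7.82, 1.201 and 5.52 in OFF-BC (3.09 ± 0.52, limma adjusted p = 0.00895). It was listed at 0 in all rod and blue cone libraries, and pan-BC were at least 12.9-fold above rods and 17.6-fold above blue cones. Both ON-BC to OFF-BC calls were lost without ON-BC library 3 or OFF-BC library 2, with adjusted p up to 0.0682 for *Tph2* and 0.0639 for *Dbh*. *Gch1*, which starts synthesis of the cofactor that *Th* and the *Tph* enzymes need, had no read in bipolar cells or rods and a mean of 0.993 in blue cones. *Pcbd1*, which recycles that cofactor, held 118.4 ± 31.0 in pan-BC and 3 reads in rods, a ratio of 118 with a counting interval of 39.9 to 574.

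*Slc18a2* loads amines into vesicles and was highest in blue cones at 7320, 7135 and 6798 normalized counts, then rods at 1709, 1933 and 2132, then pan-BC at 511.6, 364.2 and 529.8. The 3 populations did not overlap. It was called between rods and blue cones (-1.88 ± 0.19, limma adjusted p = 0.00113), pan-BC and rods (-2.05 ± 0.19, limma adjusted p = 7.22e-05) and pan-BC and blue cones (-3.93 ± 0.19, limma adjusted p = 7.11e-10). Its relative *Slc18a1* was at 170.5 ± 17.7 in pan-BC and 3.49 ± 1.88 in blue cones (5.35 ± 0.94, limma adjusted p = 0.000611). The sorted bipolar populations were lower and uneven, with 120.7, 5.88 and 67.7 in ON-BC and 77.1, 8.41 and 103.7 in OFF-BC. *Slc6a2*, which takes up noradrenaline, stood higher in rods (37.0 ± 7.87, limma adjusted p = 0.00896) and blue cones (58.8 ± 7.97, limma adjusted p = 0.00203) than in pan-BC (5.603 ± 7.93). The rod call was lost without pan-BC library 2 (adjusted p = 0.0682).

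Of the enzymes that break amines down, *Hnmt*, which methylates histamine, was higher in OFF-BC at 510.8, 532.2 and 453.5 than in ON-BC at 31.99, 44.1 and 28.7 (-3.82 ± 0.63, limma adjusted p = 0.00420). In rods it stood at 5.71 ± 6.19 beside the 2133 ± 144 of *Hdc* (SD, n = 3). *Sult1a1*, a sulfotransferase, stood at 113.5 ± 21.9 in rods and 10.1 ± 3.74 in pan-BC (-3.42 ± 0.35, limma adjusted p = 6.78e-06). *Pam*, a copper monooxygenase of peptides, stood at 1657 ± 75.7 in pan-BC and 21.7 ± 16.2 in rods (6.48 ± 0.38, limma adjusted p = 8.43e-10), and it was higher in ON-BC than in OFF-BC (3.06 ± 0.38, limma adjusted p = 0.000843).

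Between ON-BC and OFF-BC these were the 5 genes called of 23, 21.7% beside 6.55% of all genes (2.95% with ON-BC higher and 3.60% with OFF-BC). Between rods and blue cones 6 were called, all higher in blue cones, 26.1% beside 15.9% (11.3% in that direction and 4.63% in the other). They were *Tph1*, *Mtnr1a*, *Slc18a2*, *Pam* (-2.06 ± 0.38, limma adjusted p = 0.0432), *Hrh3* (-1.69 ± 0.24, limma adjusted p = 0.0327) and *Qdpr*, a cofactor reductase (-1.48 ± 0.14, limma adjusted p = 0.0122). The last 3 are less firm. *Qdpr* lost its call without blue cone library 3 or rod library 3 (adjusted p up to 0.0818), *Hrh3* without 1 of 4 single libraries, blue cone 2 and 3 and rod 1 and 2, and under 2 other settings (up to an adjusted p of 1), and *Pam* under 16 of 23 alternatives (up to 0.275).

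The genes whose pattern was most like each of the 5 members that passed the filter were found by Pearson's r over the 15 libraries on log2 values, and r mostly reflects the contrast of cell classes that these libraries share. For *Hdc* they were *Tnip2* (r = 0.992), *Utp3* (0.990) and *Thoc5* (0.984). All 3 were present in the other populations too, *Tnip2* at 2053 in rods and 238.6 in pan-BC. *Moxd1* went with *Erlin2* (0.985), *Pdzd8* (0.984) and *Svip* (0.982), and *Drd4* with *Nsun4* (0.989), *Galnt4* (0.988) and the photoreceptor guanylate cyclase gene *Gucy2e* (0.987). *Maoa* went with *Kctd8* (0.980), *Zfp804a* (0.973) and *Pbx4* (0.969), all highest in OFF-BC. *Aanat*, with few reads, had lower values, the highest being 0.902 for *Gm14827*.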

How the data were processed

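RNA-seq of 15 libraries and ATAC-seq of 12, with peaks of 14, were used. For RNA the authors aligned reads with STAR to mm10 and counted them on genes with HTSeq. For ATAC they aligned with Bowtie2, called peaks per library with MACS2 and counted reads in 200 bp regions. Duplicates and long inserts were removed before ATAC counting. In the deposited signal tables each count is scaled by the authors with the size factor of its library, and all 230384 RNA values and 1212862 ATAC values above 0 are whole reads times that factor within 0.01 read. The deposited peak files list a score, a fold enrichment ratio over background and the −log10 of p and q made by MACS2. Strand use in counting is not given in the sources used here, and no curated exon of another gene overlaps an exon of the 8 genes.

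Genes and regions with few reads were removed (filterByExpr, 14024 of 24062 genes and 108448 of 110715 regions kept). Log2(value + 1) was fitted with limma 3.58.1 (treat, R 4.3.3), testing for a change of more than 2-fold (log2 of 1) at a Benjamini-Hochberg adjusted p below 0.05. Errors of log2 differences are standard errors of this fit. The pseudocount of 1 makes the fit understate changes of low genes. Counting intervals are exact at 95% and, like the floor of 3 reads, cover counting error only. Samples were grouped by their labels. Nothing says that libraries came from separate animals in all groups, so p-values measure the spread between these libraries. Regions were assigned to the nearest curated RefSeq start (GRCm38), and lengths are unions of curated exons. Alternatives were edgeR 4.0.16 and DESeq2 1.42.0 on recovered reads, other pseudocounts, no filter, TMM factors, library totals, the replicate number as a block, leaving out each library, other region and peak windows, and 1 level for both cone types. The members and lists were chosen with earlier results of these data known. Text names all 8 genes, up to 6 called list genes per direction, start regions and up to 3 further called regions per gene, and the 3 most alike genes. Others named were chosen after their values were seen. Repeated rows of 4 gene names were left out of the levels. A gene of the list, included in its counts, is not reported here by name.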

Additional observations from a re-analysis of the deposited data

How the results depend on the processing

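None of the log2 differences that were called turned its sign under any alternative. Of the 8 genes, 5 passed the filter. Among these a sign changed only for the ON-BC to OFF-BC differences of *Aanat* and *Moxd1*, under 3 settings each. With 5 as pseudocount, with DESeq2 and with the replicate block fitted to ON-BC and OFF-BC alone, 3, 1 and 3 of the 43 member regions were called between ON-BC and OFF-BC instead of 5. The causes were not tested. ON-BC and OFF-BC libraries of the same number have mice of 1 age in the labels (43, 48 and 42 days for RNA, 42 and 46 for ATAC), but no source used here says that they shared animals. Their deviations did not correlate above 0.1 in every pair (-0.08, 0.22 and -0.06 for RNA, 0.00 for both ATAC pairs), so pairing was not assumed. With 3 RNA or 2 ATAC libraries per population, these correlations cannot show that the libraries came from separate animals. The block over all libraries moved no other count of calls by more than 1.5 times (5 in place of 6 list genes between rods and blue cones). Leaving out 1 library at a time, the called list genes ranged from 16 to 18 (pan-BC against rods, 18 with all), 16 to 18 (blue cones, 17), 3 to 5 (ON-BC against OFF-BC, 5) and 3 to 6 (rods against blue cones, 6). The 3 came without ON-BC library 3, OFF-BC library 2 or blue cone library 3. The called regions ranged from 19 to 25 (pan-BC against rods, 24), 10 to 17 (blue cones, 17), 10 to 18 (green cones, 18), 2 to 4 (ON-BC against OFF-BC, 5), 10 to 14 (rods against blue cones, 13) and 9 to 12 (rods against green cones, 10). Pan-BC against blue cones fell to 11 without pan-BC library 2 and 10 without blue cone library 2, and against green cones to 10 without pan-BC library 2 or green cone library 1. ON-BC against OFF-BC gave 2 without ON-BC library 1 or either OFF-BC library, and 3 without either pan-BC library, ON-BC library 2 or rod library 2.

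Scaling by library totals moved the median of all genes by 0.34 and 0.28 (log2) in pan-BC against rods and blue cones, and TMM factors moved that of all regions by up to -0.28. The share of called genes higher in pan-BC than in rods was 63.8%, and 74.0% by library totals. The share of called regions higher in ON-BC than in OFF-BC was 62.1%, 51.8% with TMM factors and 47.9% by library totals. Over all regions edgeR called 13665 between ON-BC and OFF-BC (limma 8010, DESeq2 4889), 18414 between rods and blue cones (10871) and 21698 between rods and green cones (12159, and 7064 with 5 as pseudocount). Within 250 bp of a curated start, peaks were found at *Aanat* in 0 libraries instead of 14. With 2 ATAC libraries per population and fewer than 100 RNA reads for *Aanat*, *Th*, *Ddc* and *Maob*, small differences there were not detectable at this depth.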
